A study of Mus musculus with 8 samples.

Results

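The genes described are Cpa3, Hdc, Slc18a2, Ms4a2, Fcer1a, Samd14, Hhex, Il1rl1 and Dapk2, which earlier work has described as targets of the transcription factor GATA2 or as genes of mast cells. They were chosen by name, and their gene identifiers were matched to symbols through a GENCODE mouse annotation. All 9 were found among the 53715 genes of the deposited tables. After a filter on low counts, 13992 genes entered the test between genotypes, with 8 of the 9 among them, and Ms4a2 had too few counts to enter.

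Bulk RNA was sequenced from haematopoietic stem cells, which were isolated from the bone marrow of mice as LSK cells (lineage markers absent, Sca-1 and Kit present) that lacked CD48 and carried CD150. Of the 8 libraries, 4 came from mice labelled Gata2 heterozygote and described as Gata2; Mx1-Cre (Het), and 4 from wild-type mice (WT), with 1 library per mouse. All mice were 8 to 12 weeks old and had received 6 doses of pIpC, a double-stranded RNA mimic that raises interferon. Mx1-Cre is a recombinase driven by an interferon-responsive promoter that also acts outside stem cells. The labels name Mx1-Cre for the Het mice and do not say whether the WT mice carried it, so an effect of the transgene and one of the Gata2 allele cannot be told apart if they did not. The comparison asked how loss of 1 Gata2 allele alters stem cell transcripts.

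GATA2 is a zinc-finger factor that binds GATA words in DNA and is needed for blood stem cells and for mast cells. Mast cells make histamine with histidine decarboxylase, load amines into granules through a vesicular monoamine transporter, store carboxypeptidase and other proteases beside them, and release the granules when IgE on its receptor is cross-linked. They also carry the receptor for IL-33.

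The 250 bases before the RefSeq start site are shown for 5 of the mast cell genes, because these windows hold the words that GATA factors bind. Promoters from RefSeq on GRCm38.p6 matched 8 of the 9 genes, with none used for Samd14. The words searched, on either strand, were AGATAA and AGATAG, and also TGATAA or TGATAG. Capitals mark them where they occur, so that a word on the opposite strand reads as its reverse complement. No searched words overlapped in the windows shown.
Slc18a2, chr19:59260628-59260877, plus strand: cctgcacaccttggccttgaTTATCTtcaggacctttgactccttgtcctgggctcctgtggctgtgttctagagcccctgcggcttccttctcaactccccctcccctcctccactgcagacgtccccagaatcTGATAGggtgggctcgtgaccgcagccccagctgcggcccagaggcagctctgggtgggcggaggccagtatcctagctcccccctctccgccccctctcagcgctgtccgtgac
Cpa3, chr3:20242182-20242431, minus strand: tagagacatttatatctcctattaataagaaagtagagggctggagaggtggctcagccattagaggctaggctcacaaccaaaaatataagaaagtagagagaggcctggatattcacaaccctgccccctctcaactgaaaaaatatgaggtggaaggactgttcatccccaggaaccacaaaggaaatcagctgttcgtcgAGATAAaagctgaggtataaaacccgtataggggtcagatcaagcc
Fcer1a, chr1:173227230-173227479, minus strand: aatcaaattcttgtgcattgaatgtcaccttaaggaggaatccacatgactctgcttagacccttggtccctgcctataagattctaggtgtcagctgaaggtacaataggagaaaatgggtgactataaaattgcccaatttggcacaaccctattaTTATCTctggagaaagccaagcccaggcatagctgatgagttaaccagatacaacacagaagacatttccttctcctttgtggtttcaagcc
Ms4a2, chr19:11623720-11623969, minus strand: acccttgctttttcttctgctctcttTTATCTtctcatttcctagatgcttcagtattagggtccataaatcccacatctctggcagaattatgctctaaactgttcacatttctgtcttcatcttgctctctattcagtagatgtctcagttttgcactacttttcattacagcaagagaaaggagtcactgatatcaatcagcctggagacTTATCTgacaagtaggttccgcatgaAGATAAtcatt
Il1rl1, chr1:40429320-40429569, plus strand, the upstream one of its start sites: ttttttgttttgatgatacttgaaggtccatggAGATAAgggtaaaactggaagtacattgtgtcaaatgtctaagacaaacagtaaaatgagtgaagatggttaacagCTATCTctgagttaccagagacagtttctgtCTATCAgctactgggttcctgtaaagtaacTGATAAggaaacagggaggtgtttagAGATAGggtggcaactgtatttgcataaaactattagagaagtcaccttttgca

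Of the 8 genes, 6 had at least 1 word in this window and 2 had none. Il1rl1 had 5 words at its upstream start site, Ms4a2 had 3, Slc18a2 had 2, and Cpa3, Hdc and Fcer1a had 1 each. In Cpa3 the word lay 46 to 41 bases before the start, and in Ms4a2 the nearest of the 3 lay 11 to 6 bases before it. Hhex and Dapk2 had none, and neither start site of Gata2 had one. Of the 32851 mouse promoters searched in the same way, 26.5% held a word, 1.35% held 3 or more and 0.0426% held 5 or more. Base composition bears on this count, since 41.7% of promoters under 50% GC held a word against 15.9% of the others. The windows of Il1rl1, Ms4a2, Fcer1a, Cpa3 and Hdc were at 37.6%, 38.8%, 42.4%, 44.4% and 48.8% GC, and those of Slc18a2, Dapk2 and Hhex at 64.0%, 65.2% and 76.0%. A match describes letters in a window and does not show that a factor is bound there.

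Assigned fragments ranged from 16750778 to 20042384 in the 4 Het-labelled libraries and from 19037864 to 22861884 in the 4 WT libraries. Levels are given in CPM, fragments scaled to the library's total with the TMM factor. With 3 counts as the floor for counting error, a count of 0 allows up to 0.150 to 0.184 CPM in the Het-labelled libraries. In the WT libraries it allows up to 0.124 to 0.146 CPM. Spread between libraries beyond counting error is not included in these limits. Gata2 itself collected 35.5, 61.9, 36.7 and 45.1 CPM in Het-labelled replicates 1 to 4, against 30.1, 45.3, 29.1 and 38.5 CPM in WT replicates 1 to 4. The groups overlapped, and the fold was 1.25 with a 95% interval of 0.873 to 1.80, or 0.33 on the log2 scale (adjusted p = 0.858 by edgeR). With each library's trend on GC content and length removed the log2 value for Gata2 was 0.60 (unadjusted p = 0.0347, adjusted p = 0.912 by edgeR), and without Het-labelled replicate 2 it was 0.13. Because the deposited count covers every exon together, it cannot show the loss of some of them. Directions are given by the labels as deposited, although the targeted transcript was not lower under the Het label. The WT libraries did not form a close group by chi-square per degree of freedom between the counts of library pairs. WT replicate 3 lay 38.9 to 51.4 from the Het-labelled libraries and 62.3 to 104 from the other WT libraries. WT replicate 4 lay 40.3 to 65.9 from the Het-labelled libraries and 62.3 to 67.7 from the other WT libraries. WT replicates 1 and 2 lay 38.8 from each other and 60.5 to 105 from all other libraries. Results for the abundant genes are also given without WT replicate 3, the only WT library nearer to every Het-labelled library than to any WT library. It was singled out from these same counts for that likeness, so leaving it out can itself widen differences between the genotypes. Stem cell markers were present in all libraries, with Hlf at 264 ± 44.4 and Procr at 45.3 ± 4.72 CPM in the Het-labelled libraries, against 217 ± 20.4 and 36.8 ± 7.76 CPM in the WT libraries (SD, n = 4 each). In bulk RNA, fewer cells of a type and less RNA per cell cannot be told apart.

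**Figure D1:**
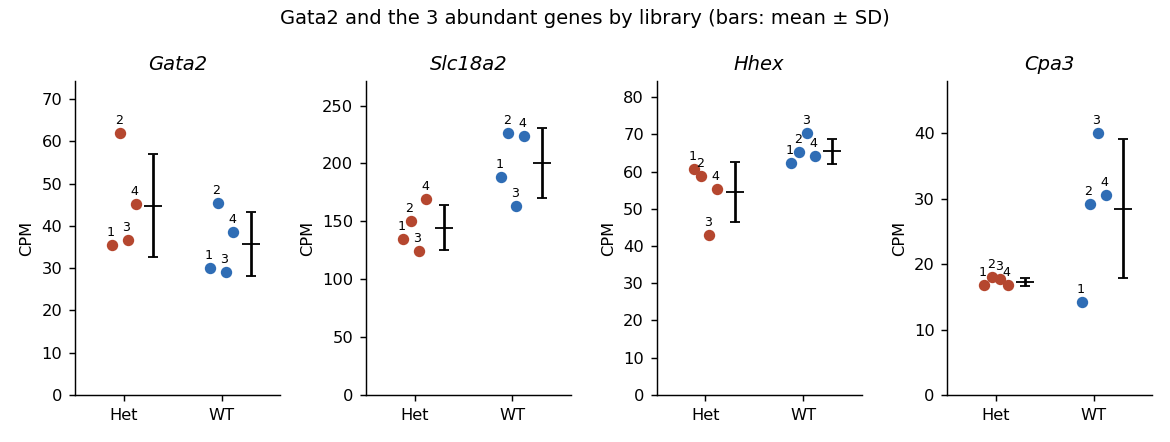
Level in CPM (y axis) of Gata2, Slc18a2, Hhex and Cpa3 in the 4 Het-labelled and 4 WT libraries, 1 point per mouse with its replicate number, and the mean with its SD as a bar. Hhex is the gene whose groups do not overlap, and the 4 Het-labelled Cpa3 points lie between 16.8 and 18.0 CPM while the WT points run from 14.2 to 40.0 CPM.

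Slc18a2, Hhex and Cpa3 were well measured and each had a lower mean in the Het-labelled libraries. The other 6 genes collected fewer than 100 fragments in every library. Per length of transcript, as CPM per kilobase of exon (RPKM), Slc18a2 was the most abundant at 38.0 ± 5.17 in the Het-labelled and 52.6 ± 7.99 in the WT libraries, above Hhex at 28.4 ± 4.16 and 34.1 ± 1.79 and Cpa3 at 11.4 ± 0.409 and 18.8 ± 7.03 (SD, n = 4 each). The level of Slc18a2 exceeded that of 88.5% of the genes tested. The remaining genes had mean RPKM values over all 8 libraries of 1.12 for Fcer1a, 0.363 for Dapk2, 0.290 for Ms4a2, 0.209 for Samd14, 0.146 for Hdc and 0.107 for Il1rl1. The spread between libraries was about as large as these means, so the order of the low genes is not resolved.

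Slc18a2 encodes the vesicular monoamine transporter VMAT2, which fills granules with histamine or serotonin. The gene (ENSMUSG00000025094.7) occupies bases 59260878 to 59296012 of chromosome 19 (GRCm38, plus strand), with the antisense gene Gm29261 opposite it and the counting set to use strand. Its level was 135, 150, 124 and 169 CPM in Het-labelled replicates 1 to 4, against 188, 226, 163 and 224 CPM in WT replicates 1 to 4. WT replicate 3 lay within the range of the Het-labelled libraries, and the other 3 WT libraries lay above all of them. The mean was 145 ± 19.7 CPM in the Het-labelled libraries and 200 ± 30.4 CPM in the WT libraries (SD, n = 4 each). The log2 fold change was -0.47 (SE 0.14), a fold of 0.722 with a 95% interval of 0.578 to 0.903. Its unadjusted p of 0.00881 ranked 139 among the genes tested, and its adjusted p was 0.850 by edgeR's quasi-likelihood test with Benjamini-Hochberg adjustment over all genes. An exact two-sided permutation test of mean log2 CPM gave p = 0.0571, where 70 assignments allow no p below 0.0286. GC-rich genes took a larger share of counts in 3 of the WT libraries. Measured as r, over genes, between GC content and the departure of a library from the mean of all, this was -0.0988 to -0.0342 in the Het-labelled libraries, against 0.180, 0.232, -0.162 and 0.0402 in WT replicates 1 to 4. With each library's trend on GC content and length removed, Slc18a2 differed by -0.42 on the log2 scale, and edgeR's unadjusted p was 0.0125 and its adjusted p 0.912. Without WT replicate 3 it differed by -0.56, and edgeR's unadjusted p was 0.00252 and its adjusted p 0.173.

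Cpa3 encodes mast cell carboxypeptidase A3, a granule protease whose transcript also marks mast cell and basophil progenitors. The gene (ENSMUSG00000001865.2) occupies bases 20215620 to 20242181 of chromosome 3 (GRCm38, minus strand), and the microRNA gene Mir7007 lies within it on the same strand. It had 16.8, 18.0, 17.7 and 16.8 CPM in Het-labelled replicates 1 to 4, against 14.2, 29.2, 40.0 and 30.5 CPM in WT replicates 1 to 4. The Het-labelled libraries were close together. In WT, replicate 1 lay below every Het-labelled library and the other 3 lay above them all. The mean was 17.3 ± 0.620 CPM in the Het-labelled libraries and 28.5 ± 10.7 CPM in the WT libraries (SD, n = 4 each). The log2 fold change was -0.72 (SE 0.29), a fold of 0.608 with a 95% interval of 0.386 to 0.959. The unadjusted p was 0.0352, the adjusted p was 0.850 by edgeR, and the exact permutation p was 0.143. The coefficient of variation was 3.58% among the Het-labelled libraries, where counting error alone gives 5.59%, and 37.5% among the WT libraries, where counting error gives 4.02%. The 4 Het-labelled values thus lay closer together than their counting error, a closeness that was not tested. With the trend on GC content and length removed, the log2 fold change of Cpa3 was -0.82 (unadjusted p = 0.00856, adjusted p = 0.912 by edgeR). By limma-voom it was -0.48 (unadjusted p = 0.156). Without WT replicate 3 the log2 fold change was -0.51 and the unadjusted p 0.111 by edgeR. Without WT replicate 1 they were -0.93 and 0.00177 by edgeR. Leaving out any one library other than WT replicate 1 put the unadjusted p of Cpa3 above 0.05.

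Hdc encodes histidine decarboxylase, the enzyme that makes histamine. It had 0, 34, 25 and 0 fragments in Het-labelled replicates 1 to 4, against 70, 0, 23 and 0 fragments in WT replicates 1 to 4. Each genotype thus had 2 libraries with the transcript and 2 without any fragment. The mean level was 0.861 ± 1.04 CPM in the Het-labelled and 0.999 ± 1.37 CPM in the WT libraries (SD, n = 4 each). The log2 fold change of -0.22 had an SE of 1.81 (adjusted p = 0.990 by edgeR), and its 95% interval of the fold, 0.0522 to 14.0, covers large changes either way. Its sign turned when WT replicate 1 was left out, at 1.23, so the data give no direction for Hdc. Around these genes, 4 of 14 listed genes of histamine and monoamine handling could be tested, with 3 above and 1 below WT in the Het-labelled libraries and 0 past the threshold (median log2 fold change 0.11). Hnmt, which inactivates histamine by methylation, was at 63.1 ± 10.4 CPM in the Het-labelled and 59.9 ± 6.50 CPM in the WT libraries (SD, n = 4 each). Slc22a3, an organic cation transporter that carries histamine, was at 77.9 ± 14.8 and 105 ± 40.6 CPM in the same order, a log2 difference of -0.44 (SE 0.26). Maoa, a monoamine oxidase, differed by 0.14 (SE 0.26). Tph1, which starts serotonin synthesis, and the serotonin transporter gene Slc6a4 had 0 fragments in all 8 libraries.

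**Figure D2:**
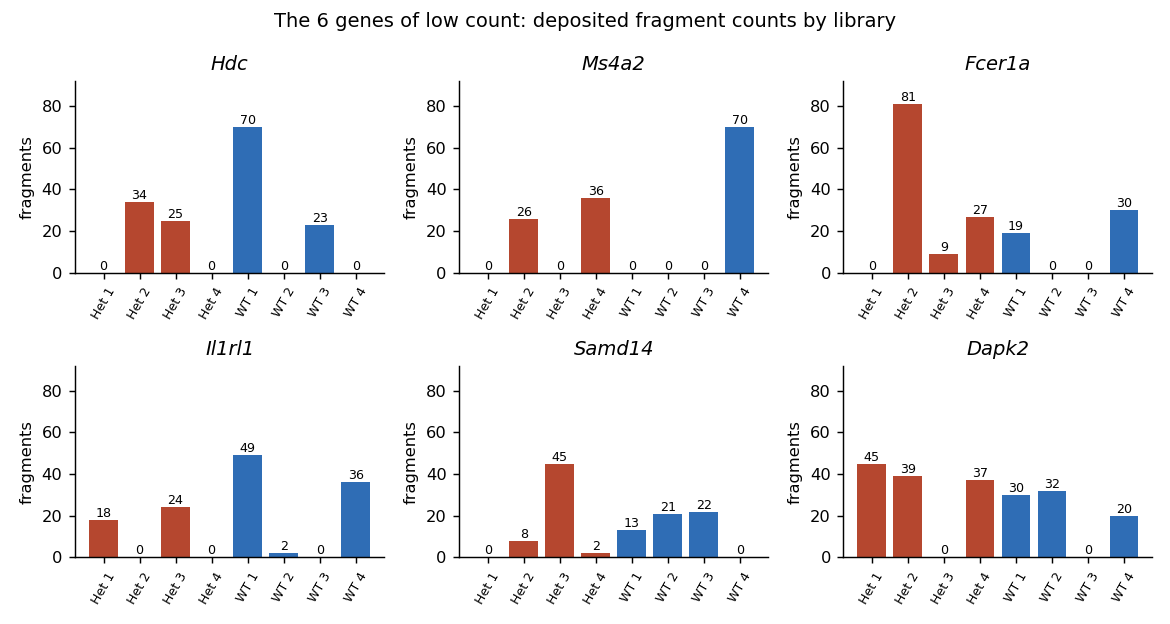
Deposited fragment counts (y axis) of Hdc, Ms4a2, Fcer1a, Il1rl1, Samd14 and Dapk2 in each library, Het-labelled on the left and WT on the right of each panel. Every one of these genes is at 0 in at least 2 of the 8 libraries and reaches 45 to 81 fragments in its highest one.

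Fcer1a and Ms4a2 encode the alpha and beta chains of the high-affinity IgE receptor, the alpha chain binding IgE and the beta chain amplifying the signal. Fcer1a had 0, 81, 9 and 27 fragments in Het-labelled replicates 1 to 4, against 19, 0, 0 and 30 fragments in WT replicates 1 to 4. Ms4a2 had 0, 26, 0 and 36 fragments in Het-labelled replicates 1 to 4, against 0, 0, 0 and 70 fragments in WT replicates 1 to 4. All 3 libraries with Ms4a2 also held Fcer1a, namely Het-labelled replicates 2 and 4 and WT replicate 4. Fcer1a was also present in Het-labelled replicate 3 and WT replicate 1, which held no Ms4a2, and the overlap was not tested. The mean of Fcer1a was 1.71 ± 2.24 CPM in the Het-labelled and 0.527 ± 0.646 CPM in the WT libraries (SD, n = 4 each), with a log2 fold change of 1.68 (SE 1.65, adjusted p = 0.903 by edgeR). Without Het-labelled replicate 2 that value was 0.24. For Ms4a2 the means were 0.858 ± 0.997 and 0.771 ± 1.54 CPM in the same order, and the exact permutation p was 1.0. The third chain of the receptor was abundant. Fcer1g, whose gamma chain also serves other Fc receptors, was at 39.6 ± 5.86 CPM in the Het-labelled and 44.2 ± 5.98 CPM in the WT libraries (SD, n = 4 each), with a difference on the log2 scale of -0.16 (SE 0.18). Per length, Fcer1g stood at 45.3 and 50.5 RPKM in the same order, against 1.71 and 0.528 RPKM for Fcer1a, so the gamma chain transcript far exceeded that of the alpha chain in both genotypes. Of 20 listed genes of IgE receptor signalling all 20 were tested, 14 were lower and 6 higher in the Het-labelled libraries, and 0 passed. The list's median log2 fold change was -0.26, beside -0.02 over all genes tested. Lat2, an adaptor of mast cells and B cells, had the smallest unadjusted p of the list, at -0.82 (SE 0.37, unadjusted p = 0.0498). The kinases Lyn and Syk differed by -0.40 (SE 0.23) and 0.31 (SE 0.56), and the exchange factor Vav1 by -0.46 (SE 0.26).

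Il1rl1 encodes ST2, the receptor chain that binds IL-33 on mast cells, basophils and type 2 lymphoid cells. It had 18, 0, 24 and 0 fragments in Het-labelled replicates 1 to 4, against 49, 2, 0 and 36 fragments in WT replicates 1 to 4. The groups overlapped fully, with the highest values in WT replicates 1 and 4. The means were 0.553 ± 0.660 CPM in the Het-labelled and 0.927 ± 1.03 CPM in the WT libraries (SD, n = 4 each), and Il1rl1 differed by -0.74 on the log2 scale (SE 1.62, adjusted p = 0.952 by edgeR), with a sign that turned to 0.50 in a fit with a term for sex. The partner chain of ST2 was steadier. Il1rap, shared with the IL-1 receptor, was at 24.9 ± 4.49 CPM in the Het-labelled and 31.2 ± 4.57 CPM in the WT libraries (SD, n = 4 each), with a difference on the log2 scale of -0.33 (SE 0.21). Il33 itself had 0 fragments in all libraries. Of 16 listed genes of the IL-33 receptor pathway 15 were tested, with 8 lower and 6 higher in the Het-labelled libraries, and 0 passed (median log2 fold change -0.19). Irak1, a kinase that the receptor recruits, was at 87.2 ± 2.58 CPM in the Het-labelled and 72.7 ± 6.54 CPM in the WT libraries (SD, n = 4 each), and its groups did not overlap. Among all genes tested 3.47% had groups that did not overlap, in either direction. The log2 difference of Irak1 was 0.26 (SE 0.12, unadjusted p = 0.0518 by edgeR). Il1r1, the neighbouring receptor gene for IL-1, differed by -1.07 (SE 0.52).

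Hhex encodes a homeobox factor of haematopoietic and endothelial progenitors that is required for lymphoid development. The gene (ENSMUSG00000024986.11) occupies bases 37434810 to 37440731 of chromosome 19 (GRCm38, plus strand). It had 60.8, 58.9, 43.0 and 55.3 CPM in Het-labelled replicates 1 to 4, against 62.3, 65.2, 70.3 and 64.1 CPM in WT replicates 1 to 4. All 4 Het-labelled libraries lay below all 4 WT libraries, with 60.8 CPM as the highest of the first and 62.3 CPM as the lowest of the second. Among all genes tested 1.82% separated in this direction and 3.47% in either. Counting error alone gives a coefficient of variation of 3.14% in the Het-labelled and 2.63% in the WT libraries. The order of the libraries at 60.8 and 62.3 CPM is therefore not resolved. The mean was 54.5 ± 7.98 CPM in the Het-labelled and 65.5 ± 3.44 CPM in the WT libraries (SD, n = 4 each). The log2 fold change was -0.26 (SE 0.15), a fold of 0.833 with a 95% interval of 0.661 to 1.05. The exact permutation p was 0.0286, the smallest that 70 assignments allow, while edgeR's unadjusted p was 0.107 and its adjusted p 0.850. With the trend on GC content and length removed, the log2 fold change was -0.17, and without Het-labelled replicate 3, the lowest library, it was also -0.17. Without WT replicate 3 it was -0.23 (unadjusted p = 0.184 by edgeR). Among 14 listed partners and other homeobox genes 12 were tested, 5 were higher and 6 lower in the Het-labelled libraries, and 0 passed (median log2 fold change -0.06). Tle3, a corepressor of the family that binds Hhex, differed by -0.81 (SE 0.37), its relative Tle4 by 0.42 (SE 0.37) and the homeobox gene Meis1 by -0.22 (SE 0.11). Lmo2, a GATA factor cofactor, was at 628 ± 15.2 CPM in the Het-labelled and 628 ± 39.5 CPM in the WT libraries (SD, n = 4 each).

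Samd14 encodes a sterile alpha motif protein that enhances Kit signalling in erythroid progenitors, and Dapk2 encodes a calmodulin-regulated death-associated kinase. Samd14 had 0, 8, 45 and 2 fragments in Het-labelled replicates 1 to 4, against 13, 21, 22 and 0 fragments in WT replicates 1 to 4. One library of each genotype held none, and Het-labelled replicate 3 held the most. Its means were 0.762 ± 1.15 CPM in the Het-labelled and 0.653 ± 0.495 CPM in the WT libraries (SD, n = 4 each). The log2 fold change of 0.22 (SE 1.45, adjusted p = 0.986 by edgeR) became -1.72 without Het-labelled replicate 3. Dapk2 had 45, 39, 0 and 37 fragments in Het-labelled replicates 1 to 4, against 30, 32, 0 and 20 fragments in WT replicates 1 to 4. It had no fragment in replicate 3 of either genotype and had fragments in the other 6 libraries. Its means were 1.63 ± 1.11 CPM in the Het-labelled and 0.919 ± 0.672 CPM in the WT libraries (SD, n = 4 each), with a log2 fold change of 0.83 (SE 1.33, adjusted p = 0.941 by edgeR). The related kinase Dapk1 was at 5.08 ± 2.84 CPM in the Het-labelled and 6.12 ± 1.42 CPM in the WT libraries (SD, n = 4 each), with a difference on the log2 scale of -0.27 (SE 0.43). All 8 listed death-associated kinases and calmodulins were tested, with 2 higher and 5 lower in the Het-labelled libraries and 0 past the threshold (median log2 fold change -0.04). Of 16 listed genes around Samd14 and Kit 15 were tested, with 5 higher and 10 lower in the Het-labelled libraries and 0 past the threshold (median log2 fold change -0.14). Kit differed by -0.15 (SE 0.18). Mapk3, the kinase ERK1, was at 4.30 ± 0.712 CPM in the Het-labelled libraries. In the WT libraries it was at 7.68 ± 1.72 CPM (SD, n = 4 each). Its groups did not overlap, as for 1.82% of all genes tested in this direction. The log2 difference of Mapk3 was -0.83 (SE 0.33, unadjusted p = 0.0311 by edgeR).

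The absence of a gene from some libraries and not from others was shared with many genes of this abundance. The 6 low genes had mean counts of 13.9 to 25.4 fragments per library. Among all 1342 genes in that range, 36.5% were at 0 in at least 2 libraries and 13.4% in at least 4. Of the low genes, Samd14 and Dapk2 were at 0 in 2 libraries, Fcer1a and Il1rl1 in 3, Hdc in 4 and Ms4a2 in 5. Het-labelled replicate 2 and WT replicate 1 each held 5 of the 6, and Het-labelled replicate 1 and WT replicate 3 each held 2.

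Over the 9 genes, 0 of the 8 tested passed the adjusted threshold of 0.05 by edgeR, where 0.0% of all 13992 genes did so. At an unadjusted p under 0.05 there were 2, Slc18a2 and Cpa3, both lower in the Het-labelled libraries, beside 3.29% of all genes lower at that level and 5.66% in either direction. Without WT replicate 3, 1812 of 14456 genes had an unadjusted p under 0.05, against 792 of 13992 with it, and 0 passed after adjustment in either case. As that library was singled out for its likeness to the Het-labelled libraries, leaving it out can itself raise that number. DESeq2 called 0 of the 8, giving adjusted p values of 0.303 for Slc18a2, 0.558 for Cpa3 and 0.789 for Hhex, and called 29 of all genes (0.207%). Of the 8, 5 had a negative and 3 a positive log2 fold change, with a median of -0.24 beside -0.02 over all genes tested. Slc18a2, Cpa3 and Hhex kept a negative sign under each of the 17 alternatives run. The median SE over all genes was 0.35, against 1.33 to 1.81 for the 5 low genes tested.

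**Figure D3:**
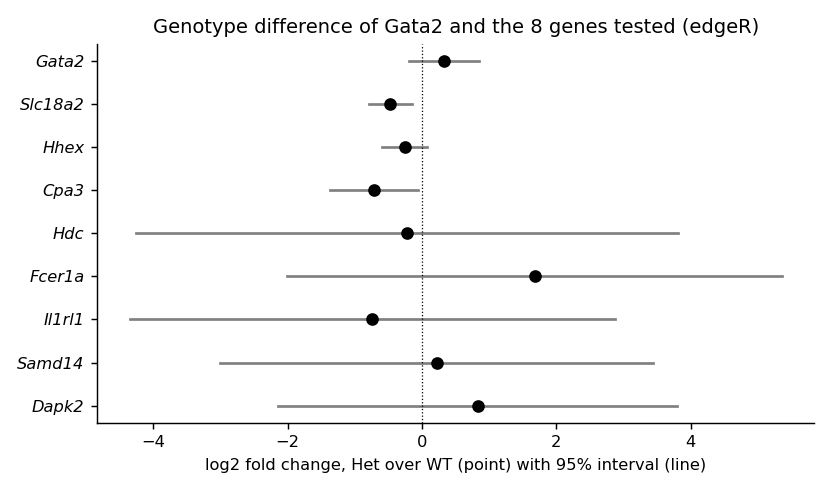
Log2 fold change of Het-labelled over WT libraries (x axis) from edgeR for Gata2 and the 8 genes that could be tested, with the 95% interval as a line. The intervals of Slc18a2 and Cpa3 lie below 0 before adjustment, and those of the 5 low genes span from under -2 to over 2 on the log2 scale.

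Covariation with Gata2 was measured as the correlation of log2 CPM over the 8 libraries, with exact permutation tests over all 40320 pairings and adjustment over 13991 genes. Of the 9 genes, 0 had an unadjusted p under 0.05, beside 3.78% of all genes, and the adjusted p was 1.0 for each of the 8 tested (0.0% of all genes passed). Slc18a2 had r = 0.02 (exact p = 0.957) and rho = 0.21 (exact p = 0.619). Cpa3 had r = -0.18 (exact p = 0.665) and rho = 0.12 (exact p = 0.793), and Hhex had r = -0.18 (exact p = 0.664) and rho = -0.31 (exact p = 0.462). Over the libraries the 3 abundant genes did not follow the Gata2 level in a common direction.

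The low genes spread to both sides. Ms4a2, Fcer1a and Dapk2 had r of 0.60, 0.56 and 0.54 (exact p = 0.137, 0.150 and 0.155) and rho of 0.52, 0.54 and 0.59 (exact p = 0.208, 0.178 and 0.135). Il1rl1 had r = -0.48 (exact p = 0.223) and rho = -0.34 (exact p = 0.410), Hdc had r = -0.15 (exact p = 0.755) and rho = -0.22 (exact p = 0.604), and Samd14 had r = -0.08 (exact p = 0.856) and rho = -0.22 (exact p = 0.606). The libraries farthest from the Gata2 median were Het-labelled replicate 2 at 61.9 CPM and WT replicate 3 at 29.1 CPM. Without them r was 0.29 for Slc18a2, 0.56 for Cpa3, 0.04 for Hhex, 0.41 for Ms4a2, -0.11 for Fcer1a, 0.17 for Dapk2, -0.87 for Il1rl1 (exact p = 0.0278), -0.74 for Hdc and -0.03 for Samd14. The relations of Fcer1a and Dapk2 with Gata2 rested on those libraries, and those of Cpa3 and Hhex changed sign. Single libraries also moved these values. Il1rl1 had r = -0.87 without WT replicate 3 (exact p = 0.00556, adjusted p = 0.925 over all genes) and r = -0.28 without Het-labelled replicate 2. Fcer1a had r = 0.76 without WT replicate 2 (exact p = 0.0365, adjusted p = 0.999 over all genes) and r = 0.19 without Het-labelled replicate 2, and Dapk2 had r = 0.34 without WT replicate 3.

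**Figure D4:**
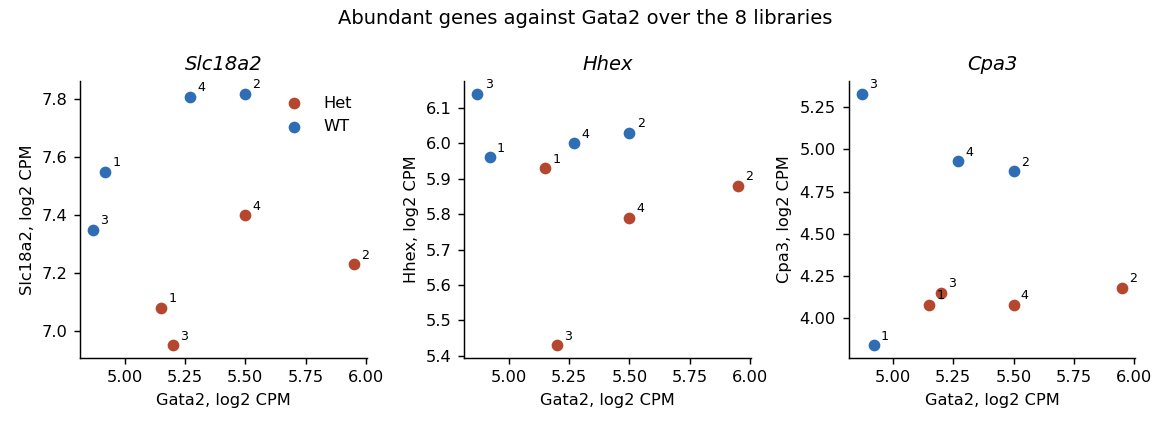
Log2 CPM of Slc18a2, Hhex and Cpa3 (y axes) against log2 CPM of Gata2 (x axes), 1 point per library with its replicate number. In the Slc18a2 panel replicates 2 and 4 of each genotype lie above and to the right of replicates 1 and 3, the Het-labelled points lie lower as a set, and the pooled r is 0.02.

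The correlation was also taken on deviations from the genotype means, with exact tests over the 576 pairings within genotype. Slc18a2 then had r = 0.72 (exact p = 0.0660, adjusted p = 0.993 over all genes). Within each genotype, replicates 2 and 4 had the higher Gata2 and the higher Slc18a2, and replicates 1 and 3 the lower. Hhex had r = 0.23 (exact p = 0.689) and Cpa3 r = 0.16 (exact p = 0.849) on that scale. None of the 9 passed at an unadjusted 0.05 there, beside 4.44% of all genes.

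**Figure D5:**
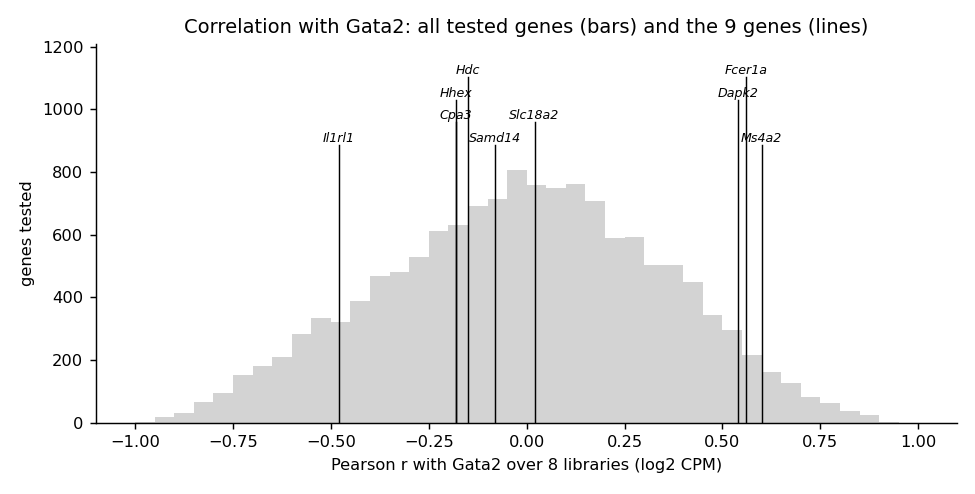
Distribution of Pearson r with Gata2 over the 8 libraries for all genes tested (grey bars, y axis in genes), with the 9 genes as lines at their r. The lines run from -0.48 for Il1rl1 to 0.60 for Ms4a2 and lie on both sides of 0.

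The 3 abundant genes were compared with each other in the same way. Slc18a2 and Hhex had r = 0.631 (exact p = 0.0824, adjusted p = 0.468 over all genes) and rho = 0.619 (exact p = 0.115), Slc18a2 and Cpa3 r = 0.452 (exact p = 0.257, adjusted p = 0.638) and rho = 0.262 (exact p = 0.536), and Cpa3 and Hhex r = 0.561 (exact p = 0.135, adjusted p = 1.0) and rho = 0.571 (exact p = 0.151). On deviations from the genotype means these became 0.202, -0.0780 and 0.235 in the same order. Each was smaller than its pooled value. Without the 2 libraries farthest from the median of the first gene, r was 0.633, 0.0234 and 0.256. The genes whose log2 CPM followed Slc18a2 most closely over the 8 libraries, among 8527 protein-coding genes averaging 5 CPM or more, were Ptprcap (r = 0.982), Susd3 and Tbc1d10c (r = 0.975 each). For Hhex they were Tiprl (0.987), Pex11g (0.957) and Zfp688 (0.952), and for Cpa3 they were Ccl9 (0.976), H2-Ob (0.938) and Skap2 (0.912). Ccl9, a chemokine gene, was at 3.28 CPM in the Het-labelled and 7.27 CPM in the WT libraries on average. For Gata2 the closest were Fam102b (0.905), Kansl3 (0.901) and Pik3c3 (0.889). These are descriptions over 8 libraries chosen from many genes, and they share library depth and composition.

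Markers of mature mast cells were not detected. All 9 listed, among them the protease genes Cma1, Mcpt4, Tpsab1 and Tpsb2 and the receptor gene Mrgprb2, had 0 fragments in all 8 libraries. Of 5 basophil markers Cd200r3 was at 0 throughout, Prss34 had 1 fragment in all, and Mcpt8 had 49 fragments in all, with a mean of 0.0384 ± 0.0768 CPM in the Het-labelled and 0.525 ± 0.616 CPM in the WT libraries (SD, n = 4 each). The list's sum, mostly Il4, ran from 3.36 to 10.6 CPM in the Het-labelled and from 3.14 to 11.7 CPM in the WT libraries. Eosinophil markers summed to between 0.927 and 2.87 CPM in the Het-labelled and between 3.02 and 9.09 CPM in the WT libraries, with Ccr3 the highest of them on average, and 3 of the 8, Il5ra, Ear1 and Ear6, were at 0 in all. That sum was lower in every Het-labelled library, where 1.82% of all single genes tested separated in that direction. Only 2 of the 8 markers could be tested, Ccr3 and Prg2, with unadjusted p of 0.175 and 0.504 by edgeR. The part of the sum in the levels of the 9 genes was not tested. Of 8 markers of type 2 innate lymphoid cells 5 were at 0, including Il7r, Il5 and Il13. Rora was present in all libraries, at 12.9 ± 4.44 CPM in the Het-labelled and 16.7 ± 3.06 CPM in the WT libraries (SD, n = 4 each). Il17rb and Icos had 155 and 41 fragments in all. The sum of these markers, mostly Rora, ran from 8.08 to 17.9 CPM in the Het-labelled and from 15.8 to 21.2 CPM in the WT libraries. Platelets also use VMAT2, and of 8 markers of megakaryocytes and platelets 7 were lower in the Het-labelled libraries, and 0 passed. Vwf, von Willebrand factor, was at 16.6 ± 2.44 CPM in the Het-labelled and 30.3 ± 5.48 CPM in the WT libraries (SD, n = 4 each), at -0.87 on the log2 scale (SE 0.22, adjusted p = 0.850 by edgeR). The 8 markers' sum ran from 509 to 796 CPM in the Het-labelled and from 675 to 943 CPM in the WT libraries, and its part in the level of Slc18a2 was not tested.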

How the data were processed

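The authors deposited raw fragment counts per gene for 8 libraries, with no normalization. The submitters' processing notes name Trim Galore, cutadapt, GRCm38 and STAR 2.5.1b. Per the file headers, featureCounts 1.6.2 counted reverse-stranded fragments over exons of GENCODE M17, where the processing notes name 1.5.1. No option to count multi-mapped or multi-gene fragments stands in those headers. RNA was depleted of ribosomal RNA and made into libraries with 11 PCR cycles, without molecular identifiers, per the labels. The exon length per gene, another value of the deposited tables, was used for RPKM.

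Genotype was tested with edgeR 4.0.16 in R 4.3.3 (filterByExpr, TMM, robust quasi-likelihood fits, Benjamini-Hochberg adjustment over 13992 genes, threshold 0.05). Log2 CPM carried a prior count of 2. DESeq2 1.42.0, limma 3.58.1, other scalings and filters, a replicate block, a sex term from Xist and Y-linked counts, removal of GC and length trends and leaving out each library were alternatives. The genes and lists were chosen with earlier results of these data known. Named genes were Gata2, the 9 genes, list members with the smallest unadjusted p or a role in a gene's pathway, and the 3 genes closest in pattern. Symbols came from GENCODE M21, with 95 identifiers unmatched. The labels do not say whether mice were littermates.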

Additional observations from a re-analysis of the deposited data

Results flagged for a closer look

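Among the 20 sets of 4 libraries checked (10 genes in 2 genotypes), 2 had a library far from the other 3. The measure was the ratio of the gap to the whole range on the log2 CPM scale. About 1 in 20 sets of normally distributed values would be flagged by chance, a rate that does not carry over to sets with counts of 0. Ms4a2 stood at 3.08 CPM in WT replicate 4 and at 0 in the other 3 WT libraries. Its ratio was 1.0, which 3 values tied at 0 fix in advance. Dapk2 was at 0 in Het-labelled replicate 3 and between 1.89 and 2.39 CPM in the other 3, a ratio of 0.931. WT replicate 3 also held no Dapk2 fragment.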

How the results depend on the processing

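No gene passed by edgeR under any scaling, filter, block, sex or GC setting, nor with any library left out, while DESeq2 called 29 genes, none of the 9. The log2 fold changes of Gata2, Slc18a2, Cpa3, Hhex, Fcer1a and Dapk2 kept their sign throughout. With the replicate block Hdc turned to 0.21 and Samd14 to -0.34. With a sex term Samd14 turned to -0.66 and Il1rl1 to 0.50, and with limma-voom Samd14 turned to -0.56. Leaving out single libraries gave -1.13 to 1.23 for Hdc and -1.72 to 0.65 for Samd14. The cause of these turns was not tested. Same-numbered libraries of the genotypes correlated at 0.00565 to 0.0961 in their deviations from the group means and not every library matched its own number best, so the numbers were not taken as pairs.

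For r with Gata2, the sign of Cpa3 turned to 0.12 as rho, to 0.16 within genotype and to 0.56 without the 2 extreme libraries, that of Hhex to 0.23 within genotype and 0.04 without those libraries, and that of Fcer1a to -0.11 without them. With the replicate block r was -0.98 for Slc18a2 (exact p = 0.125) and 0.22 for Hdc (exact p = 0.750). There 0.125 is the smallest p that the pairings within a replicate number allow, so 0 genes could fall under 0.05. Only the differences between the genotypes at each replicate number enter that setting. Within sex Ms4a2 reached r = 0.73 (exact p = 0.0417). Leaving out single libraries gave -0.47 to 0.23 for Cpa3, -0.77 to 0.09 for Hdc, -0.13 to 0.29 for Slc18a2, -0.21 to 0.08 for Samd14, -0.57 to 0.06 for Hhex, -0.87 to -0.28 for Il1rl1, 0.19 to 0.76 for Fcer1a, 0.34 to 0.68 for Dapk2 and 0.47 to 0.75 for Ms4a2. For the 6 low genes, low counts and their spread between libraries limit what can be seen.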

Other observations

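Other genes linked to mast cells and basophils ranged from undetected to abundant in these stem cell libraries. Of 35 listed genes 11 had 0 fragments in all 8 libraries and 20 were tested. Of those tested, 13 were higher and 7 lower in the Het-labelled libraries, 0 passed by edgeR, and 0 had an unadjusted p under 0.05 in either direction. A few were abundant. Srgn, the core protein of granule proteoglycans, was at 1160 ± 40.4 CPM in the Het-labelled and 1140 ± 184 CPM in the WT libraries (SD, n = 4 each). Alox5ap, which presents arachidonic acid for leukotriene synthesis, was at 373 ± 8.05 and 355 ± 37.8 CPM in the same order, and Cd63, a granule membrane tetraspanin, at 625 ± 32.7 and 640 ± 35.2 CPM. Csf2rb, the common beta chain of the IL-3 and IL-5 receptors, had the smallest unadjusted p of the list, at 29.0 ± 8.38 CPM in the Het-labelled and 18.5 ± 6.45 CPM in the WT libraries, a log2 difference of 0.65 (SE 0.31, unadjusted p = 0.0644).

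Mitf, a transcription factor that acts with GATA2 in mast cells, was at 7.41 ± 3.84 CPM in the Het-labelled and 8.66 ± 2.66 CPM in the WT libraries (SD, n = 4 each). Of 23 listed genes described around GATA2, Mitf among them and all tested, 15 were lower and 6 higher in the Het-labelled libraries, with a median log2 fold change of -0.22, beside -0.02 over all genes. Of these, Itga2b at -0.69 (SE 0.24) and Gata3 at -0.75 (SE 0.32) had an unadjusted p under 0.05 by edgeR, and 0 passed. Among all genes tested 3.29% were lower at that unadjusted level and 5.66% differed in either direction. The list also holds genes of the erythroid lineage, with Klf1 at -1.36 (SE 0.65), Gata1 at -0.89 (SE 0.43) and Gfi1b at -0.65 (SE 0.29). Of 8 erythroid markers, Klf1 again among them, 7 were tested, 5 were lower and 2 higher in the Het-labelled libraries, 0 passed and the median log2 fold change was -0.75. The erythroid markers summed to between 59.0 and 116 CPM in the Het-labelled and between 59.4 and 162 CPM in the WT libraries, and their part in the levels of the GATA2 list was not tested.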
